A study of Mus musculus with 18 samples.

Results

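The BCL2 family decides at the mitochondrial outer membrane whether a cell enters the intrinsic path of apoptosis. The 9 members described here were taken by name, out of 32699 gene symbols in the count table: Pmaip1 (Noxa), Bbc3 (Puma), Bmf, Bcl2l11 (Bim), Bid, Bax, Mcl1, Bcl2 and Bcl2l1 (Bcl-xL). All 9 had enough counts to be tested. They were measured by RNA sequencing in PyMT-BO1, a luminal B-like mouse breast cancer line of C57BL/6 background, and every culture carried a knockout of integrin β3. The knockout cells had been rescued by retrovirus with the empty vector pMx, with a functional human integrin β3 (hβ3) or with a mutant integrin β3 that cannot signal (Δβ3). Each of the 3 lines received the solvent DMSO or 10 nM docetaxel, a taxane that stabilises microtubules, for 24 h, in 3 cultures per group. Each construct is represented by 1 line. The p-values therefore measure the spread between cultures of a line, and the effect of a construct cannot be told apart from other differences between the lines.

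In the textbook view, BH3-only proteins carry the stress signal. Pmaip1, Bbc3, Bmf, Bcl2l11 and Bid belong to this class. They bind and block the pro-survival proteins Mcl1, Bcl2 and Bcl2l1, and some of them also activate the effectors. Bax is an effector that opens the outer membrane and lets cytochrome c out, which starts the caspases. Pmaip1 binds mainly Mcl1, while Bbc3 and Bcl2l11 bind all the pro-survival proteins. Pmaip1, Bbc3 and Bax are known targets of p53. Cells held in mitosis by a taxane are known to lose the Mcl1 protein by degradation, which RNA counts do not measure.

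Promoter sequences are shown for Bbc3, Bax and Bmf, whose RNA was higher in docetaxel together with that of Pmaip1 in the 16-library fit described further on. They are RefSeq windows of the 250 bases before a start site, in the build GRCm38.p6, read 5′ to 3′ on the gene's strand. Capitals mark the GC box, GGGCGG on either strand, and matches to the consensus p53 half-site. The RefSeq table held 15 windows for 8 of the 9 members, and none for Pmaip1. It held 3 windows for Bbc3, 1 for Bax and 3 for Bmf. For Bbc3 the window nearest to the annotated start of the gene is shown, and for Bmf the 1 window that held a p53 half-site, chosen for that match. The Bbc3 window shown is chr7:16309333-16309582 on the plus strand and lies in an intron of Bbc3 in the GENCODE M21 annotation of mm10. The Bax window is chr7:45466899-45467148 on the minus strand, outside the annotated gene, and overlaps the gene model Gm45808. The Bmf window shown is chr2:118544588-118544837 on the minus strand, in an intron of Bmf.
Bbc3: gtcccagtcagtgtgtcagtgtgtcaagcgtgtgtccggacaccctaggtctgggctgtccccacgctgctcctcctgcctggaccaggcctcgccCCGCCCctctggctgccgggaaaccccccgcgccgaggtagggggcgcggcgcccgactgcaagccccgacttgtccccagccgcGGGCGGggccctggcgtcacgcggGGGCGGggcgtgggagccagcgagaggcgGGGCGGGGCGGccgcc
Bax: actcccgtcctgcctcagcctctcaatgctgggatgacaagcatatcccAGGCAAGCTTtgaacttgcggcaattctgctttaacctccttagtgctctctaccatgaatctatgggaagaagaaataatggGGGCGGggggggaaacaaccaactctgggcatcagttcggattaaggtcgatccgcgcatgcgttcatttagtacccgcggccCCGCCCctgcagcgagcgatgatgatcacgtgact
Bmf: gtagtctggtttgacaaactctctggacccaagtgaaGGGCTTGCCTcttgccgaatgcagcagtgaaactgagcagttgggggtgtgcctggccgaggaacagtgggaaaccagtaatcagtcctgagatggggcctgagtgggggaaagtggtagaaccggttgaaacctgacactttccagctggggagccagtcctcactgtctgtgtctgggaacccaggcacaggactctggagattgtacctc
The Bbc3 window shown held 5 GC boxes, 2 of which overlap, and none of the 3 Bbc3 windows held a p53 half-site. The Bax window held 2 GC boxes and a p53 half-site, AGGCAAGCTT, whose first base lies 201 bases before the start site. The Bmf window shown held the half-site GGGCTTGCCT, whose first base lies 213 bases before its start site. The other 2 Bmf windows, with the one at the annotated start of the gene among them, held no half-site, and none of the 3 held a GC box. Over the members' 15 windows, 2 held a p53 half-site and 9 a GC box. Of all 32851 windows of this length, 7.13% held a p53 half-site and 32.7% a GC box. A match describes letters in these windows and shows no binding.

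The count table held 7972612 to 18961392 counts per library. Itgb3, the deleted gene, checked the labels: its level was 0.322 to 1.30 CPM (counts relative to the TMM-scaled library size) in the pMx libraries and 32.9 to 131 CPM in the rescued ones. The human construct is counted here only where its reads align to mouse Itgb3. Of 12 luminal epithelial markers, Krt8 and Krt18 carried the signal, with 338721 and 256147 counts over the 18 libraries. The others were low, with 0 counts for Gata3 and Elf3, 1 for Cldn7, 3 for Cldn3, 4 for Krt19 and 5 for Epcam. Cldn4 had 13, Esr1 14, Foxa1 79 and Cdh1 276. Counts on heart muscle markers were present in every library, and 2 libraries stood apart. Of the 22 markers, Nppb had 0 counts over the 18 libraries, Tnnt2 1, Myl7 5, Mb 7, Myl4 20 and Csrp3 23. Reads that fit more than 1 transcript model may be missing from such counts. Without the 2 libraries, Ankrd1 had the most counts of the list, 64654, followed by Actc1 with 28536. Summed over 22 heart muscle markers, Δβ3 docetaxel culture 2 had 46249 CPM and culture 1 of Δβ3 in DMSO had 5615, against 259 to 2361 CPM in the other 16. In Δβ3 docetaxel culture 2 the summed luminal markers were also the lowest of all, at 1191 CPM against 1981 to 3417 CPM in the others. Every test was therefore made with all 18 libraries and again with the 16 that exclude these 2. The biological coefficient of variation over all genes was 36.1% with 18 libraries and 13.2% with 16. A gene was called at an adjusted p under 0.05 in the quasi-likelihood test of edgeR with Benjamini-Hochberg adjustment over all tested genes, and every adjusted p given here comes from that test.

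Pmaip1 was the member that separated the groups most clearly. It encodes Noxa (mm10 chromosome 18, 66458533 to 66465565, plus strand) and has a single transcript model in the table, with 19 to 496 counts per library. In pMx it was at 3.98, 2.99 and 3.68 CPM in DMSO and at 12.7, 10.0 and 11.5 CPM in docetaxel. The Δβ3 cultures were at 1.87, 2.25 and 2.16 CPM in DMSO and at 9.29, 7.46 and 7.80 CPM in docetaxel. In hβ3 it was at 20.6, 20.8 and 21.1 CPM in DMSO and at 31.9, 35.3 and 29.8 CPM in docetaxel. The hβ3 cultures without drug were thus already above every drug-treated culture of the other lines, and in each line the docetaxel cultures lay above the DMSO cultures. The order of the group means was hβ3 docetaxel, hβ3 DMSO, pMx docetaxel, Δβ3 docetaxel, pMx DMSO and Δβ3 DMSO. All 5 pairs of neighbours in that order had ranges that did not overlap, which was so for 2 of 12145 tested genes (0.0165%), each in the order of its own means. For each of the other 8 members, no more than 1 of 5 neighbouring pairs was apart. As these are bulk samples, more cells expressing a gene and more RNA per cell cannot be told apart.

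**Figure D1:**
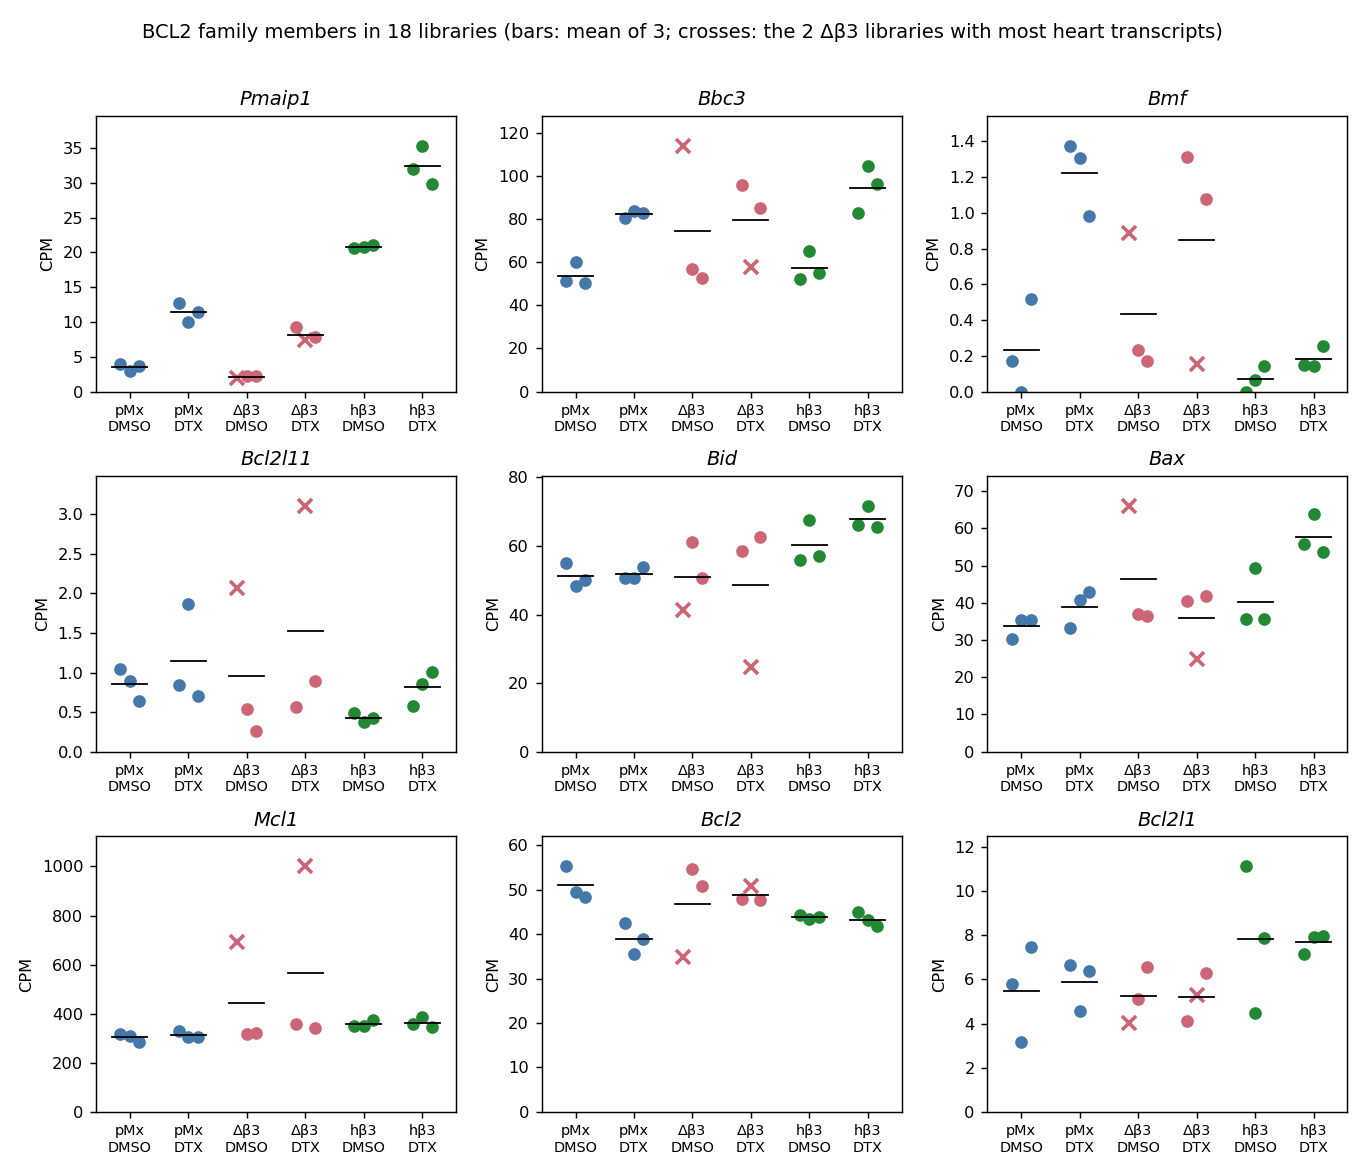
Level of each member in CPM (vertical axis, from 0, on a scale of its own in each panel) in the 6 groups. Points are cultures, horizontal bars are means of 3, and crosses are the 2 Δβ3 libraries with most heart transcripts. Pmaip1 runs from 1.87 to 35.3 CPM with all 6 groups apart, and the crosses stand away from the other Δβ3 cultures for Mcl1, Bax, Bid, Bbc3 and Bcl2l11.

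Docetaxel raised Pmaip1 in the mean of the 3 lines. The log2 fold change was 1.43 ± 0.10 (SE, n = 9 against 9, adjusted p = 9.79e-08), a 2.69-fold increase, and 1.44 ± 0.09 with 16 libraries. In pMx the log2 change was 1.68 ± 0.17 (adjusted p = 4.22e-05), and in Δβ3 it was 1.96 ± 0.18 (adjusted p = 1.08e-05). The hβ3 line had a change of 0.64 ± 0.16, with an adjusted p of 0.0828 for 18 libraries. With 16 libraries, which left the 6 hβ3 cultures as they were, it was 0.65 ± 0.12 with an adjusted p of 0.000643. The ranges of hβ3 docetaxel and DMSO did not overlap, which was also so, in the higher direction, for 14.9% of all tested genes. The matching shares in pMx and Δβ3 are not given here.

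The fold increase of Pmaip1 was smaller in hβ3 than in the other lines. The difference of the log2 changes, hβ3 minus Δβ3, was -1.32 ± 0.24 with 18 libraries (adjusted p = 0.0739) and -1.31 ± 0.24 with 16 (adjusted p = 0.00623). For hβ3 minus pMx it was -1.04 ± 0.24 with 18 libraries (adjusted p = 0.379) and -1.04 ± 0.19 with 16 (adjusted p = 0.00372). The sizes were thus the same in both fits, and the edgeR calls rest on the 16-library fit. The joint test of the 3 lines gave an adjusted p of 0.153 with 18 libraries and 0.0014 with 16. Between Δβ3 and pMx the response differed by 0.28 (95% interval -0.24 to 0.80) and was not called. On the scale of added CPM the order of the lines was another one, with 11.6 ± 1.61 CPM (SE, n = 3 against 3) gained in hβ3, 7.84 ± 0.833 in pMx and 6.09 ± 0.574 in Δβ3. The matching ratios of mean CPM were 1.56, 3.21 and 3.90. A difference in added CPM between lines was not tested.

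Between lines without drug, Pmaip1 was 5.86-fold higher in hβ3 than in pMx (log2 2.55 ± 0.18, adjusted p = 6.69e-08) and 9.87-fold higher than in Δβ3 (log2 3.30 ± 0.19, adjusted p = 4.47e-09). In docetaxel the distances were 2.84-fold to pMx (log2 1.51 ± 0.17, adjusted p = 1.59e-05) and 3.94-fold to Δβ3 (log2 1.98 ± 0.17, adjusted p = 1.16e-06). All 4 were called with 16 libraries too. Δβ3 lay below pMx in both treatments without overlap. That difference was not called, at log2 -0.75 ± 0.18 in DMSO (adjusted p = 0.458 with 18 libraries and 0.241 with 16) and -0.47 ± 0.17 in docetaxel (adjusted p = 0.347 and 0.359). Ranges of Δβ3 wholly below those of pMx occurred for 7.28% of tested genes in DMSO and 5.29% in docetaxel.

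The count of members that passed the test depended on the 2 libraries. In the mean docetaxel response, 2 of 9 members rose and 0 fell with 18 libraries, where 7.9% of tested genes rose and 7.67% fell. With 16 libraries, 4 rose and 1 fell, where 15.8% of genes rose and 14.3% fell. The risers were Pmaip1 and Bbc3 in both fits, joined by Bax and Bmf with 16 libraries, and the member that fell was Bcl2. The median log2 change of the 9 members was 0.14 with 18 libraries and 0.31 with 16, against 0.06 and 0.02 over all tested genes. Within pMx, 1 member rose and 0 fell with 18 libraries, where 1.92% of genes rose and 1.7% fell. With 16 libraries 3 rose and 1 fell in pMx, where 10.3% and 11% of genes did. Within Δβ3, 1 rose and 0 fell with 18 libraries (3.33% and 3.53% of genes), and 2 rose and 0 fell with 16 (5.98% and 5.28%). Within hβ3, edgeR called 0 members with 18 libraries, where 0.922% of genes rose and 0.239% fell. Of the 9, 3 had an unadjusted p under 0.05 there, and DESeq2 called 1. The shares of all genes at that unadjusted threshold and in DESeq2 are not given here. With 16 libraries 3 rose and 0 fell in hβ3, where 7.28% and 5.17% of genes did.

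In the differences of response between lines, edgeR called 0 members with 18 libraries, and at an unadjusted p under 0.05 the number was 1 for hβ3 minus pMx, 2 for hβ3 minus Δβ3 and 1 for Δβ3 minus pMx. DESeq2 called 1, 1 and 0. Of all genes, edgeR called 0.0165%, 0.0412% and 0% in these 3 differences at an adjusted p under 0.05, and 0.0165% in the joint test. Those shares do not apply to the counts at unadjusted p or in DESeq2, for which no share is given here. With 16 libraries Pmaip1 was the 1 member called, for hβ3 minus pMx among 2.3% of genes, for hβ3 minus Δβ3 among 0.591% and in the joint test among 1.51%. For Δβ3 minus pMx 0% of genes were called with 16 libraries.

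**Figure D2:**
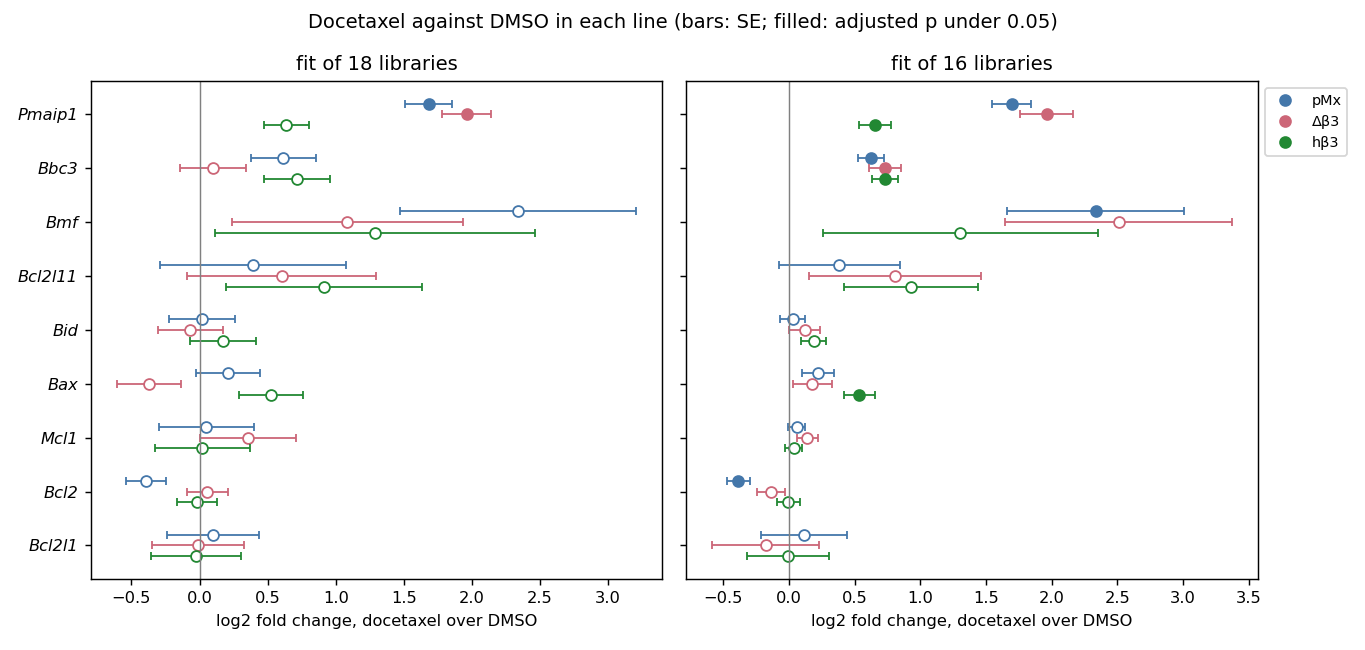
Log2 fold change of each member in docetaxel over DMSO (horizontal axis) by line, with 18 libraries on the left and 16 on the right. Points are estimates, bars are SE, and filled points passed the test. Pmaip1 changes by 1.68, 1.96 and 0.64 in pMx, Δβ3 and hβ3 on the left, and the Δβ3 points of Bbc3 and Bax move to the right when the 2 libraries are left out.

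Bbc3 encodes Puma, a BH3-only protein of broad binding (chromosome 7, 16308393 to 16318205, plus strand). In pMx it was at 51.2, 59.9 and 50.4 CPM in DMSO and at 80.5, 84.0 and 82.9 CPM in docetaxel. In hβ3 it was at 52.4, 65.4 and 54.9 CPM in DMSO and at 83.0, 105 and 96.3 CPM in docetaxel. In these 2 lines the treated cultures lay above the untreated ones. In hβ3 this was so for 14.9% of tested genes, and the share in pMx is not given here. The Δβ3 cultures 2 and 3 were at 57.0 and 52.6 CPM in DMSO, and cultures 1 and 3 at 95.7 and 85.2 CPM in docetaxel, but the line was at 114 CPM in DMSO culture 1 and 58.0 CPM in docetaxel culture 2. Those last 2 are the libraries with most heart transcripts, and with them the treated and untreated ranges of the line overlapped. The mean response was 0.48 ± 0.14 on the log2 scale with 18 libraries (adjusted p = 0.0272) and 0.70 ± 0.06 with 16 (adjusted p = 2.74e-09). The call with 18 libraries was lost in 10 of the 18 fits that leave out 1 library each, at an adjusted p from 0.05 to 0.0605. With 16 libraries it rose in each line, by 0.62 ± 0.10 in pMx, 0.73 ± 0.12 in Δβ3 and 0.73 ± 0.10 in hβ3. With 18 libraries the change in no single line was called.

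Unlike the response of Pmaip1, that of Bbc3 was not called as different between lines in either fit. With 16 libraries the difference hβ3 minus pMx was 0.11 (95% interval -0.18 to 0.39), and hβ3 minus Δβ3 was 0.00 (95% interval -0.32 to 0.32). Nor was its level called between the lines. In DMSO, hβ3 minus pMx was 0.08 on the log2 scale with 16 libraries (95% interval -0.13 to 0.28).

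Bmf, a BH3-only protein that is known to respond to loss of anchorage and of the cytoskeleton (chromosome 2, 118528757 to 118549687, minus strand), had between 0 and 21 counts per library. Its counts fell on 2 transcript models, of 4633 and 4554 bases. Reads that fit more than 1 model may be missing, so this level is no measure of how much Bmf RNA the cells hold. In pMx, Bmf had 2, 0 and 8 counts in DMSO and 13, 14 and 21 in docetaxel. In Δβ3 it had 9, 3 and 2 counts in DMSO and 21, 1 and 12 in docetaxel, where the 9 and the 1 are the libraries that stand apart. In hβ3 it had 0, 1 and 2 counts in DMSO and 2, 2 and 3 in docetaxel. So the pMx docetaxel cultures and Δβ3 docetaxel cultures 1 and 3 were the ones with more than 10 counts, at 0.984 to 1.38 CPM. A count of 0 allows up to 3 counts, which is 0.191 CPM in pMx DMSO culture 2 and 0.208 CPM in hβ3 DMSO culture 1, for counting error only.

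In the mean response Bmf had a log2 change of 1.57 ± 0.57 with 18 libraries (adjusted p = 0.0733) and rose by 2.05 ± 0.51 with 16 (adjusted p = 0.00316). It rose in pMx with 16 libraries, by 2.33 ± 0.67 (adjusted p = 0.014), and was not called in Δβ3 at 2.51 ± 0.86 (adjusted p = 0.0627) or in hβ3 at 1.30 ± 1.05 (adjusted p = 0.508). In docetaxel, Bmf was lower in hβ3 than in pMx with 16 libraries, by a log2 difference of -2.71 ± 0.71 (adjusted p = 0.0055), and lower than in Δβ3, at -2.70 ± 0.76 (adjusted p = 0.0118). With 18 libraries these were -2.70 ± 0.91 (adjusted p = 0.0806) and -2.28 ± 0.92 (adjusted p = 0.109). Fitted changes at so few counts depend on the prior count. Bmf and Pmaip1 thus differed between hβ3 and the other treated lines in opposite directions.

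Bcl2l11 encodes Bim, a BH3-only protein that activates Bax (chromosome 2, 128126038 to 128162547, plus strand). It had 3 to 21 counts per library, and counts fell on 1 of its 7 transcript models. The table may lack reads that fit more than 1 model, so this level is no measure of how much Bim RNA the cells hold. The highest levels were 3.11 CPM in culture 2 of Δβ3 in docetaxel and 2.07 CPM in culture 1 of Δβ3 in DMSO, the libraries that stand apart, followed by 1.87 CPM in pMx docetaxel culture 2. In hβ3 it was at 0.485, 0.372 and 0.426 CPM in DMSO and at 0.583, 0.855 and 1.01 CPM in docetaxel. Those ranges did not overlap, as was so in that direction for 14.9% of tested genes. The log2 change of 0.93 ± 0.51 with 16 libraries was not called (adjusted p = 0.276). No comparison called Bcl2l11 in either fit.

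Bid links caspase 8 to the mitochondria once it is cleaved (chromosome 6, 120891930 to 120916853, minus strand). In docetaxel it was at 50.8, 50.8 and 53.8 CPM in pMx and at 66.2, 71.8 and 65.6 CPM in hβ3, without overlap, as were 23.5% of tested genes in that direction. The Δβ3 line was at 58.4 and 62.7 CPM in docetaxel cultures 1 and 3 and at 24.6 CPM in culture 2. In DMSO it was at 55.1, 48.2 and 50.1 CPM in pMx, 41.2, 61.3 and 50.6 CPM in Δβ3 and 56.0, 67.6 and 57.1 CPM in hβ3. Bid was higher in hβ3 than in pMx in docetaxel with 16 libraries, by 0.37 ± 0.09 on the log2 scale (adjusted p = 0.00374). With 18 libraries the difference was 0.39 ± 0.24 (adjusted p = 0.421). It did not pass the test for docetaxel against DMSO in any line, and the mean response was 0.11 with 16 libraries (95% interval -0.01 to 0.23).

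Bax, the effector (chromosome 7, 45461697 to 45466898, minus strand), had its highest treated levels in hβ3. It was at 35.7, 49.3 and 35.8 CPM in hβ3 DMSO and at 55.8, 63.8 and 53.6 CPM in hβ3 docetaxel. In pMx it was at 30.3, 35.4 and 35.3 CPM in DMSO and at 33.1, 40.8 and 43.0 CPM in docetaxel. In Δβ3 it was at 36.9 and 36.4 CPM in DMSO cultures 2 and 3 and at 40.6 and 41.9 CPM in docetaxel cultures 1 and 3. The 2 libraries that stand apart again lay outside, at 66.1 CPM in DMSO culture 1 and 24.9 CPM in docetaxel culture 2. So the treated hβ3 cultures lay above every treated culture of the other lines. Treated hβ3 ranges wholly above those of pMx occurred for 23.5% of tested genes, and the share for Δβ3 is not given here.

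With 16 libraries Bax rose in hβ3 by 0.54 ± 0.12 on the log2 scale (adjusted p = 0.00298) and in the mean of the lines by 0.31 ± 0.08 (adjusted p = 0.00216). With 18 libraries the change in hβ3 was 0.52 ± 0.23 (adjusted p = 0.472) and the mean 0.12 ± 0.14 (adjusted p = 0.605). In pMx and Δβ3 it was 0.22 ± 0.12 and 0.18 ± 0.15 with 16 libraries, not called, and the response was not called as different between lines (hβ3 minus pMx 0.31, 95% interval -0.04 to 0.66). In docetaxel, Bax was higher in hβ3 than in pMx by 0.55 ± 0.12 (adjusted p = 0.00107) and than in Δβ3 by 0.48 ± 0.13 (adjusted p = 0.0114) with 16 libraries. The adjusted p for these was 0.173 and 0.0724 with 18. Counts of Bax fell on 2 transcript models, of 1216 and 869 bases. The shorter took 5.44 to 6.75% of Bax counts in hβ3 DMSO and 3.24 to 4.08% in hβ3 docetaxel. Its share was 4.38 to 5.71% and 1.60 to 4.36% in pMx, also apart, and 4.99 to 7.76% and 3.07 to 8.13% in Δβ3, which overlapped. These shares rest on 5 to 52 counts of the shorter model per library and were not tested.

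Mcl1, the pro-survival partner of Noxa (chromosome 3, 95658788 to 95663176, plus strand), had 3124 to 7016 counts per library. It was at 315, 310 and 283 CPM in pMx DMSO and at 331, 305 and 305 CPM in pMx docetaxel. In hβ3 it was at 350.2, 350.2 and 375 CPM in DMSO and at 358, 386 and 346 CPM in docetaxel. In Δβ3 it was at 316 and 321 CPM in DMSO cultures 2 and 3 and at 359 and 339 CPM in docetaxel cultures 1 and 3. The 2 libraries that stand apart were the highest of all 18, at 692 CPM in DMSO culture 1 and 1002 CPM in docetaxel culture 2. In the same 2 libraries the markers of other cell types were also at their highest, given here as summed levels, DMSO culture 1 first. Those of heart muscle were at 5615 and 46249 CPM, as above. Those of fibroblasts were at 195 and 1150 CPM, against at most 77.7 CPM in the other 16 libraries. Endothelial markers were at 70.2 and 674 CPM, against at most 35.6. Leukocyte and macrophage markers were at 29.2 and 188 CPM, against at most 15.1. Rn45s took 41.5% and 23.6% of counts there and 6.59 to 33.0% in the others. Mcl1 thus moved with markers of several cell types, and their part in its level was not tested.

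Mcl1 RNA did not pass the test for docetaxel against DMSO in any line or in either fit. With 16 libraries the log2 change was 0.06 in pMx (95% interval -0.07 to 0.19), 0.14 in Δβ3 (-0.02 to 0.30) and 0.04 in hβ3 (-0.10 to 0.17). Mcl1 was higher in hβ3 than in pMx with 16 libraries, by 0.22 ± 0.06 in DMSO (adjusted p = 0.0119) and 0.20 ± 0.06 in docetaxel (adjusted p = 0.0237). With 18 libraries those differences were 0.24 ± 0.35 and 0.21 ± 0.35 (adjusted p = 0.792 and 0.814). The log2 distance between hβ3 and pMx in DMSO was thus 2.54 for Pmaip1 and 0.22 for Mcl1 in the same fit.

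**Figure D3:**
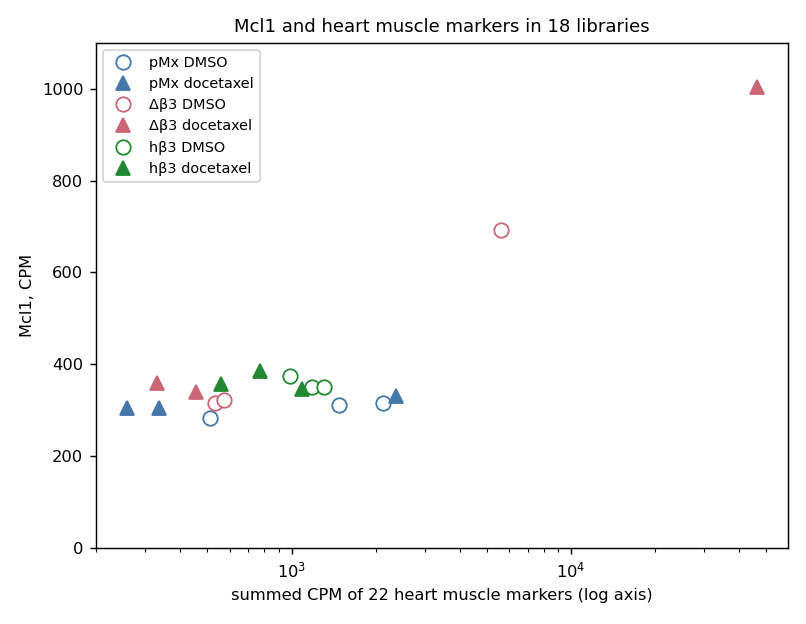
Mcl1 in CPM (vertical axis, from 0) against the summed CPM of 22 heart muscle markers (horizontal log axis), 1 point per library, with colours for lines and filled triangles for docetaxel. The 2 Δβ3 libraries at 5615 and 46249 CPM of heart markers hold 692 and 1002 CPM of Mcl1, and the other 16 lie between 283 and 386 CPM.

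Bcl2, a pro-survival protein of the outer membrane (chromosome 1, 106538178 to 106714274, minus strand), had lower RNA in docetaxel in the pMx line with 16 libraries. In pMx it was at 55.4, 49.6 and 48.4 CPM in DMSO and at 42.5, 35.5 and 38.8 CPM in docetaxel, without overlap, as were 17.7% of tested genes in that direction. In hβ3 it was at 44.3, 43.5 and 43.9 CPM in DMSO and at 44.9, 43.2 and 41.8 CPM in docetaxel. In Δβ3 it was at 54.8 and 51.0 CPM in DMSO cultures 2 and 3 and at 47.9 and 47.8 CPM in docetaxel cultures 1 and 3. The 2 libraries that stand apart were at 34.9 CPM in DMSO and 50.8 CPM in docetaxel. In pMx the log2 change was -0.38 ± 0.09 with 16 libraries (adjusted p = 0.00253) and -0.39 ± 0.15 with 18 (adjusted p = 0.184). In hβ3 it was 0.00 with 16 libraries (95% interval -0.19 to 0.18). In Δβ3 it was not called, at -0.14 ± 0.11 with 16 libraries and 0.06 ± 0.15 with 18. The mean response was -0.17 ± 0.05 with 16 libraries (adjusted p = 0.0172) and -0.12 ± 0.09 with 18 (adjusted p = 0.398). The difference of these responses, hβ3 minus pMx, was 0.38 ± 0.12 and was not called (adjusted p = 0.115 with 16 libraries). In DMSO, Bcl2 was lower in hβ3 than in pMx, at -0.24 ± 0.09 (adjusted p = 0.0443), and than in Δβ3, at -0.28 ± 0.10 (adjusted p = 0.0368), both with 16 libraries. Neither was called with 18, at adjusted p values of 0.499 and 0.734.

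Bcl2l1, which encodes the pro-survival Bcl-xL (chromosome 2, 152780668 to 152831728, minus strand), had 34 to 161 counts per library, on 4 of 7 transcript models. As for Bcl2l11, reads that fit more than 1 model may be missing, so this level is no measure of how much Bcl-xL RNA the cells hold. Its range was 3.18 to 7.48 CPM in the pMx libraries, 4.05 to 6.57 in Δβ3 and 4.46 to 11.2 in hβ3. In docetaxel it was at 7.14, 7.91 and 7.99 CPM in hβ3 and at no more than 6.67 CPM in the treated cultures of the other lines. Its treated hβ3 range was thus above that of pMx, as was so for 23.5% of tested genes, and the share for Δβ3 is not given here. The log2 difference of hβ3 from pMx in docetaxel was 0.37 with 16 libraries (95% interval -0.31 to 1.05). No comparison called Bcl2l1 in either fit.

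Between hβ3 and pMx, Pmaip1 was the member called in both treatments and both fits. In DMSO, 1 of 9 members was higher and 0 lower with 18 libraries, where 4.88% of tested genes were higher and 4.13% lower. With 16 libraries 2 were higher (Pmaip1 and Mcl1) and 1 lower (Bcl2), where 13.3% and 13.5% of genes were, so that this count is near the share over all genes. In docetaxel, 1 was higher and 0 lower with 18 libraries, among 4.63% and 3.83% of genes. With 16 libraries 4 were higher (Pmaip1, Bax, Bid and Mcl1) and 1 lower (Bmf), among 15.2% and 12.2% of genes. Against Δβ3 in DMSO, 1 member was higher and 0 lower with 18 libraries (6.27% and 6.86% of genes), and with 16 libraries 1 was higher and 1 lower (11.1% and 12.2%). Against Δβ3 in docetaxel, 1 was higher and 0 lower with 18 libraries (4.38% and 5.69%), and with 16 libraries 2 were higher and 1 lower (9.6% and 10.3%). Between Δβ3 and pMx, edgeR called 0 members in either treatment and either fit, where 0.0412% of genes in DMSO and 0.0247% in docetaxel were called with 18 libraries, and 0.332% and 0.453% with 16. At an unadjusted p under 0.05, 1 member in DMSO and 3 in docetaxel passed in that comparison with 18 libraries. The share of all genes at that unadjusted threshold is not given here, so these 2 counts cannot be set against it. DESeq2 also called 0 members there. The comparisons share groups, so their counts are not independent. The ribosomal RNA precursor Rn45s took 6.59 to 9.81% of counts in the pMx libraries and 10.9 to 33.0% in those of hβ3. The counts of called members between these 2 lines were the same with Rn45s left out.

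**Figure D4:**
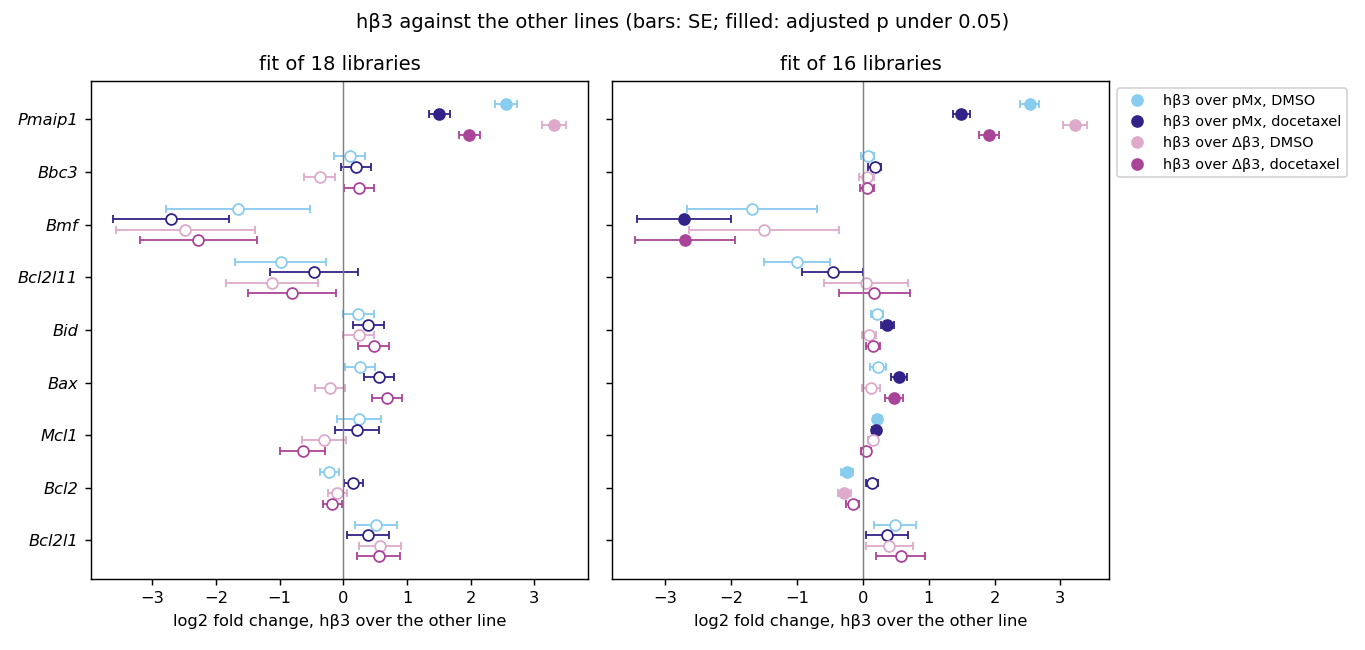
Log2 fold change of each member in hβ3 over pMx or over Δβ3, in DMSO or in docetaxel as the legend gives (horizontal axis), with 18 libraries on the left and 16 on the right. Points are estimates, bars are SE, and filled points passed the test. Over the 4 contrasts Pmaip1 lies between 1.49 and 3.30 in both fits, and Bmf lies below 0, with filled points only in docetaxel with 16 libraries.

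Other genes of the pathway came from 3 lists. Of 22 further BCL2 family genes, 7 had enough counts to be tested, and in the mean docetaxel response 0 of 7 were called with 18 libraries, where 7.9% of all tested genes rose and 7.67% fell. With 16 libraries 1 fell, Bnip1, by 0.19 on the log2 scale (adjusted p = 0.0407), where 15.8% of genes rose and 14.3% fell. The median of the 7 was -0.12 with 18 libraries. In hβ3 against pMx in DMSO, Bok, a relative of Bax, was the 1 gene called with 18 libraries, at -0.72 ± 0.21 (adjusted p = 0.0383). It was at 122 to 144 CPM in hβ3 and 195 to 243 CPM in pMx. Of all tested genes, 4.88% were higher and 4.13% lower in that comparison. With 16 libraries Bcl2l2, a pro-survival gene, was lower too, at -0.76 ± 0.19, and Bnip3, which is known to act in mitophagy, was higher at 0.40 ± 0.09. These 2 that were lower and 1 that was higher stand beside 13.5% and 13.3% of genes.

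Downstream of the mitochondria, 18 of 21 genes of the apoptosome, the caspases and their inhibitors were tested. In the mean docetaxel response 0 rose and 1 fell with 18 libraries, among 7.9% and 7.67% of all tested genes. The gene that fell was the inhibitor Birc5 (survivin), at -0.42 ± 0.10 (adjusted p = 0.00753). Birc5 is also a gene of the mitotic spindle. With 16 libraries 1 rose and 3 fell, among 15.8% and 14.3% of genes, so that the counts are near or below these shares. Casp6, a caspase, had a log2 change of 0.27 ± 0.08 (adjusted p = 0.012), Cycs (cytochrome c) -0.34 ± 0.07, Vdac1 -0.17 ± 0.04 and Birc5 -0.37 ± 0.09. The list's median was -0.03 with 18 libraries. Birc6, an inhibitor of caspases, was higher in hβ3 than in pMx in DMSO with 18 libraries, at 0.63 ± 0.13 (adjusted p = 0.00376), at 664 to 786 CPM in hβ3 and 436 to 498 CPM in pMx. Casp2 was lower in hβ3 than in pMx in DMSO with 16 libraries, at -0.29 ± 0.10.

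Of 22 symbols of known regulators of the family's transcription or protein turnover, 21 were in the count table and 15 were tested. The list names the gene March5 also as Marchf5. In the mean docetaxel response 2 rose and 2 fell with 18 libraries, among 7.9% and 7.67% of all tested genes. Atf4, a transcription factor of the stress response that can induce Noxa, was at -1.05 ± 0.28 (adjusted p = 0.0163), and E2f1, a cell cycle factor, at -0.89 ± 0.21 (adjusted p = 0.00699). Atf4 was low, at 1.27 to 11.4 CPM over the 18 libraries, with 2.20 to 11.4 CPM within hβ3 DMSO. Foxo1, which can induce Bim and Puma, rose by 0.34 ± 0.10 (adjusted p = 0.0337). March5, a ubiquitin ligase of the outer membrane, rose by 0.59 ± 0.18 (adjusted p = 0.0383), also at a low level, 1.38 to 7.48 CPM. With 16 libraries these 4 were called in the same directions, and Usp9x, which removes ubiquitin from Mcl1, was the 1 further gene that fell, at -0.17 ± 0.04. These 2 that rose and 3 that fell stand beside 15.8% and 14.3% of genes. The mean change of E2f1 was -0.55 ± 0.10 in that fit, and its highest level over all 18 libraries was 49.4 CPM, in Δβ3 DMSO. In hβ3 against pMx in DMSO, 0 of 15 were called with 18 libraries, where 4.88% of tested genes were higher and 4.13% lower. With 16 libraries 3 were higher and 0 lower, among 13.3% and 13.5% of genes, so that this count is near the share over all genes. They were Foxo1 at 0.51 ± 0.12, Usp9x at 0.29 ± 0.07 and Trp53, which encodes p53, at 0.77 ± 0.29 (adjusted p = 0.0479). Trp53 was low and its ranges overlapped, at 2.60 to 5.32 CPM in hβ3 and 1.38 to 3.35 CPM in pMx. The median of the list in the mean docetaxel response was 0.18 with 18 libraries, against 0.06 over all genes.

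Genes with a pattern like that of Pmaip1 were ranked by Pearson's r of log2 CPM over the 18 libraries, among 8479 genes with a mean of at least 2 CPM. The likest was Tubb3, the neuronal class III β-tubulin (chromosome 8, 123411424 to 123422015, plus strand), at r = 0.967, and 0.977 over 16 libraries. It was at 64.0, 75.2 and 67.2 CPM in pMx DMSO, at 126, 115 and 129 CPM in pMx docetaxel, and at 171, 175 and 165 CPM in hβ3 DMSO. In hβ3 docetaxel it was at 188, 208 and 190.1 CPM. In Δβ3 it was at 64.1, 71.8 and 61.1 CPM in DMSO and at 129, 79.6 and 119 CPM in docetaxel. As for Pmaip1, the hβ3 cultures without drug lay above all cultures of the other lines. The share of all genes for which this was so is not given here. The next were Aloxe3 (r = 0.936, and 0.936 over 16), Selp (0.928 and 0.920), Igsf11 (0.922 and 0.912), Ahnak2 (0.920 and 0.957) and Plk2 (0.913 and 0.909). In Plk2, a polo-like kinase and known p53 target, the hβ3 line went the other way in the drug, from a mean of 195 CPM in DMSO to 137 CPM in docetaxel, a log2 change of -0.51. The 18 points fall into groups by line and treatment, so these values describe group levels and carry no p.

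**Figure D5:**
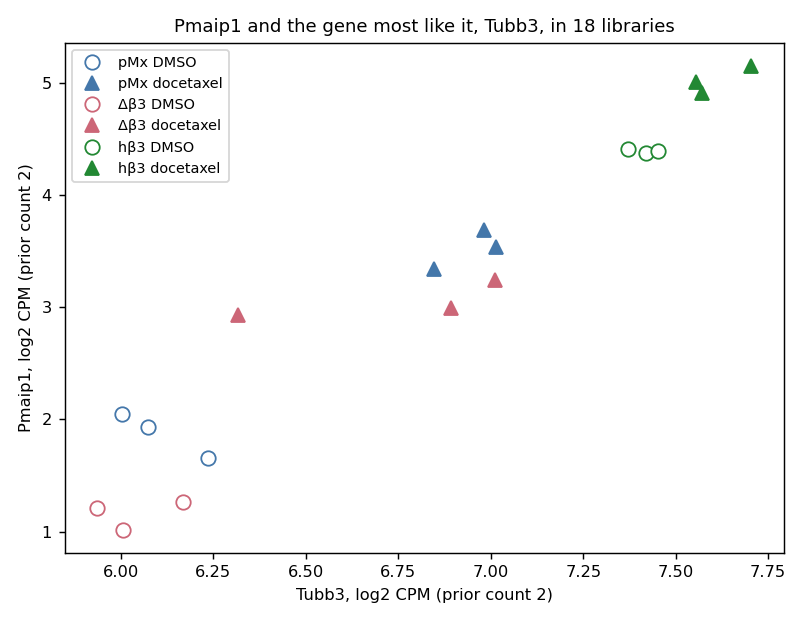
Pmaip1 against Tubb3, both in log2 CPM with a prior count of 2, 1 point per library, with colours for lines and filled triangles for docetaxel. The 6 hβ3 libraries lie at the upper right, the untreated pMx and Δβ3 libraries at the lower left and their treated libraries between, with r = 0.967 over 18 libraries.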

How the data were processed

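RNA was sequenced in 18 libraries, as single reads after removal of ribosomal RNA per the labels' protocols. The authors deposited raw read counts per transcript model, made with FastQC, HISAT2 and featureCounts on mm10 per the submitters' processing notes. Tool versions, gene annotation, strandedness of counting and what became of reads matching more than 1 model: not given in the sources used here. Only to name models did the model length in bases serve, an other unit that the authors deposited beside the counts.

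Counts of 63759 models were summed over 32699 symbols, after 244 symbols lost a stray space. Genes kept by filterByExpr (12145 with 18 libraries, 12356 with 16) were scaled with TMM and tested two-sided with the robust quasi-likelihood F-test of edgeR 4.0.16 in R 4.3.3, with 1 coefficient per group. The symbol Rn45s, the ribosomal RNA precursor, took 6.59 to 41.5% of counts and was left out in 1 alternative. CPM uses TMM-scaled library sizes, and 95% intervals come from the fit. The mean docetaxel response was also fitted on simulated counts. These had the same spread for every gene and no library that stood apart, so that run does not cover libraries like those left out here. Alternatives were 8 planned settings beside 18 that leave out 1 library each, with DESeq2 1.42.0 among them, and 4 added after seeing the data.

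The members, the lists and the 16-library fit were chosen with earlier results of these data known. All 9 members are named. From the lists, at most 6 genes called in the mean docetaxel response and in hβ3 against pMx in DMSO are named, by smallest p, and the 6 genes most like Pmaip1 by Pearson's r. Sequences and start sites come from RefSeq (GRCm38.p6), coordinates of genes from GENCODE M21. A result within the list of genes downstream of the mitochondria is not reported here.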

Additional observations from a re-analysis of the deposited data

Results flagged for a closer look

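The docetaxel response of Pmaip1 differed between lines when the difference itself was tested. With 16 libraries, hβ3 minus pMx was -1.04 on the log2 scale (adjusted p = 0.00372, edgeR) and hβ3 minus Δβ3 was -1.31 (adjusted p = 0.00623). The treated cultures were above the untreated ones in all 3 lines, so the lines differ in size and not in direction. With all 18 libraries neither difference passed the test.

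Bok moved in opposite directions, with its change called in hβ3, pMx and Δβ3 with 16 libraries and in Δβ3 alone with 18. In hβ3 its treated range of 159 to 193 CPM lay above the untreated range of 122 to 144 CPM, a log2 change of 0.35 with 18 libraries. In pMx the treated range of 158 to 189 CPM lay below the untreated one of 195 to 243 CPM, and in Δβ3 216 to 241 CPM lay below 274 to 568 CPM. Of all tested genes, 14.9% had ranges apart upward in hβ3 and 17.7% downward in pMx, and the share for Δβ3 is not given here. The difference of the responses was called with 16 libraries, at 0.73 ± 0.13 for hβ3 minus pMx (adjusted p = 0.002) and 0.73 ± 0.14 for hβ3 minus Δβ3 (adjusted p = 0.0095), and was not called with 18 (adjusted p = 1 and 0.51).

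Bcl2l2 had ranges apart upward in hβ3 and downward in pMx, at low levels. In hβ3 the ranges were 2.98 to 3.46 CPM in DMSO and 3.63 to 4.04 CPM in docetaxel, a log2 change of 0.25 that was not called in either fit (adjusted p = 0.44 with 16 libraries). In pMx they were 4.96 to 5.97 and 3.18 to 3.49 CPM. Ranges apart upward in hβ3 occurred for 14.9% of all tested genes, and downward in pMx for 17.7%. The difference was 0.90 and was not called, with an adjusted p of 1 with 18 libraries and 0.0767 with 16.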

How the results depend on the processing

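The calls of the members turned on the 2 Δβ3 libraries rich in heart transcripts. Without both, 5 members were called in the mean response (2 with 18 libraries), 4 in pMx (1), 2 in Δβ3 (1) and 3 in hβ3 (0). The number went from 0 to 1 for hβ3 minus pMx, hβ3 minus Δβ3 and the joint test, from 1 to 3 and from 1 to 5 for hβ3 against pMx in DMSO and docetaxel, and from 1 to 2 and from 1 to 3 for hβ3 against Δβ3. With RLE factors, without Rn45s, with DESeq2 or with 14 libraries on top of that (the last also without pMx DMSO and docetaxel cultures 1), the counts were the same as with 16 except as follows. In pMx they were 3 with DESeq2 and 3 with 14 libraries (Bmf adjusted p = 0.059). In Δβ3 they were 3 with 14 libraries. For hβ3 against pMx in DMSO they were 2 with RLE factors, DESeq2 and 14 libraries, each without Bcl2 (adjusted p = 0.0673, 0.0668 and 0.14). These 4 settings were chosen after seeing the data, and the shares of all genes called in them are not given here. From 18 to 16 libraries the share of all genes called also grew in each comparison named here, as given above. In the mean response 15.8% rose and 14.3% fell with 16, against 7.9% and 7.67% with 18. In hβ3 these were 7.28% and 5.17% with 16, against 0.922% and 0.239% with 18.

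With all 18 libraries, DESeq2 called 1 member, Pmaip1, in hβ3, in hβ3 minus pMx, in hβ3 minus Δβ3 and in the joint test. Fits of only the groups compared called 4 members in pMx, 0 in Δβ3 (Pmaip1 1.97, adjusted p = 0.244), 3 in hβ3, 1 in hβ3 minus pMx, 2 for hβ3 against pMx in DMSO and 5 in docetaxel. The shares of all genes called by DESeq2 and in these smaller fits are not given here, so these counts stand without them. RLE factors, Rn45s left out, no filter on low counts and 1 transcript model per gene moved no such count by over 1.5 times, though Bmf joined the calls of the mean response with 1 model per gene (2.01, adjusted p = 0.042). No value of a member called with all 18 libraries changed sign in another setting. Values called with 16 libraries but not with 18 did so in places. The response of Bbc3 in Δβ3 ran from -0.10 to 0.73 over the settings. Bcl2 in hβ3 against Δβ3 in DMSO ran from -0.29 to 0.04. Signs of values called in neither of the fits compared were not set against each other.

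Leaving out 1 library at a time gave 1 to 3 called members in the mean response, 1 to 3 in pMx, 1 to 1 in Δβ3, 0 to 2 in hβ3, 0 to 1 for hβ3 minus Δβ3 and in the joint test, 1 to 3 for hβ3 against pMx in docetaxel and 1 to 2 for hβ3 against Δβ3 in docetaxel. The other comparisons kept their count, at 0 to 0 or 1 to 1. Over all genes, these fits called 1421 to 2631 in the mean response, 151 to 1205 in pMx, 578 to 1675 in Δβ3 and 62 to 554 in hβ3. They called 1 to 9 for hβ3 minus Δβ3 and 1 to 18 in the joint test. In docetaxel they called 572 to 1964 for hβ3 against pMx and 591 to 2656 for hβ3 against Δβ3. The highest counts of members came without Δβ3 DMSO culture 1 or Δβ3 docetaxel culture 2. Pmaip1 in hβ3 was called without either (adjusted p = 0.0206 and 0.0155), and its difference hβ3 minus Δβ3 without the latter (-1.39, adjusted p = 0.0282). The call of Bbc3 in the mean response with 18 libraries was lost in 10 of the 18 such fits, with log2 changes of 0.41 to 0.47 and adjusted p from 0.05 to 0.0605.

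Pairing of the cultures by replicate number was not settled: of 45 pairs with the same number, 18 had deviations correlated above 0.1. The values ran from -0.53 to 0.46. Between Δβ3 DMSO and docetaxel they were -0.50, -0.48 and 0.46 for numbers 1, 2 and 3. These groups hold the 2 libraries that stand apart, so the tally cannot exclude a batch shared by number. With the numbers as a replicate block, 2 members were called in the mean response, 1 in pMx, 1 in Δβ3 and 0 in hβ3, as without it. The shares of all genes called with the block are not given here. Bmf had 0 to 21 counts per library and Bcl2l11 3 to 21, and at such counts intervals are wide.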
